A study of Mus musculus with 6 samples.

Results

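The genes described here are 10 feedback inhibitors of mitogen-activated protein kinase (MAPK) signaling, chosen by name: the dual-specificity phosphatases *Dusp1*, *Dusp4*, *Dusp5*, and *Dusp6*, the Sprouty genes *Spry1*, *Spry2*, and *Spry4*, and the Spred genes *Spred1*, *Spred2*, and *Spred3*. Each matched exactly 1 of the 53715 genes in the deposited count table, by its Ensembl identifier without the version. RNA was taken from the cerebellum of male C57BL/6 mice at 4 weeks of age, 3 labelled WT (called control here) and 3 labelled slc39a8-KO (called *Slc39a8*-NSKO here). In *Slc39a8*-NSKO mice a Cre recombinase driven by the synapsin I promoter acts on floxed *Slc39a8* alleles in neurons, and the activity of this promoter can vary between brain regions. The sample labels call the controls WT, and the methods of the study speak of wild-type mice for tissue sections. The results of the study, however, name *Slc39a8* fl/fl controls for its qPCR. The counts do not settle which were used. The comparison asks whether the loss of this zinc, iron, and manganese importer from neurons alters the cerebellar transcriptome.

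A growth factor receptor or neuronal activity switches on RAS, which passes the signal through RAF and MEK to the kinase ERK, while stress signals run through the related kinases p38 and JNK. ERK turns on the genes of its own inhibitors. The DUSP phosphatases remove phosphate from active MAP kinases, and Sprouty and Spred proteins act upstream, between the receptor and RAF. In neurons several of these genes behave as immediate-early genes, which are transcribed within minutes of activity through CREB and serum response factor.

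The counts on genes ranged from 14431260 to 20844267 per mouse. Values below are in CPM, counts scaled to a common library size after TMM normalization, and all 10 genes passed the filter on low counts, as did 16330 genes in all. The targeted gene, *Slc39a8*, had 3.60 ± 1.04 CPM in control against 2.04 ± 0.138 CPM in *Slc39a8*-NSKO mice (SD, n = 3 per genotype), and did not pass the threshold (edgeR adjusted p = 0.534). All 8 granule cell and all 8 Purkinje cell markers, which define the cerebellum, were counted in every mouse. Their summed levels overlapped between the genotypes, at 4815 to 4983 CPM in control and 4766 to 5166 CPM in *Slc39a8*-NSKO mice for granule cells, and at 6347 to 7257 CPM and 6967 to 7535 CPM for Purkinje cells. Of the 13 marker lists read, 3 heart muscle genes and the interneuron gene *Nxph1* passed the threshold, and no gene of the other 11 lists did.

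The RefSeq promoter table of GRCm38.p6 held 8 of the 10 genes, with 250 bases before and 50 after the start. The stretches before the start of *Dusp1*, *Dusp5*, and *Dusp6* are shown because these phosphatase genes hold letters of known regulatory motifs, and because they are the DUSP genes with the lowest p values below. Capitals mark matches, on either strand, to 5 motifs: the cAMP response element TGACGTCA, to which CREB binds, the shorter core TGACG within it, the AP-1 site TGANTCA, the ETS core CGGAAG, and the CArG box of serum response factor. Each stretch is read 5′ to 3′ along its gene and ends before the first base of an annotated exon, which leaves out the last 47 bases before the RefSeq start for *Dusp1*, 36 for *Dusp5*, and 0 for *Dusp6*. Positions below are counted from the RefSeq start and not from the end of the printed stretch. They are chr17:26508520-26508722 on the minus strand, chr19:53528895-53529108 on the plus strand, and chr10:99262981-99263230 on the plus strand.
Dusp1: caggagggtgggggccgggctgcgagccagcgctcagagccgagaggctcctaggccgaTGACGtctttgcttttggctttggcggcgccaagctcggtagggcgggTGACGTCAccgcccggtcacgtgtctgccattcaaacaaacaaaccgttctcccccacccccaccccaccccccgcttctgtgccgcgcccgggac
Dusp5: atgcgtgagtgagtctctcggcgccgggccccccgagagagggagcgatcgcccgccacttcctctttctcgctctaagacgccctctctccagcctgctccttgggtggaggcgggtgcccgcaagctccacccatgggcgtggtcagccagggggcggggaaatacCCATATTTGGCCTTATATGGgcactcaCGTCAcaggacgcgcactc
Dusp6: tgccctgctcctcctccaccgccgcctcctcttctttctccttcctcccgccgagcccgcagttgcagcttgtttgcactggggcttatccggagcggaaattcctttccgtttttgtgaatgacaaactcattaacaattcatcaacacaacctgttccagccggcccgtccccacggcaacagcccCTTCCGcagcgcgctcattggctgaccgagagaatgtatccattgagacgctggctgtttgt

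*Dusp1* was the only one of the 8 windows with the full cAMP response element, 143 to 136 bases before the start, and this element was present in 1.8% of 32544 promoter windows of the same length. Counting overlaps, it contains that core on each strand, and a further core lay 191 to 187 bases before the start. *Dusp5* had 2 CArG boxes side by side, 82 to 73 and 72 to 63 bases before the start, where 1.64% of all windows had at least 1. It also had the TGACG core 55 to 51 bases before the start, as did *Spred2* at 51 to 47 bases, and this core was in 20.9% of all windows. *Dusp6* had an ETS core 62 to 57 bases before the start, and *Spred1* and *Spred2* had this motif too, against 17% of all windows. In *Spred1* it lay 17 to 12 bases before the start, with another after the start. The 50 bases after the RefSeq start of *Spred1* did not match any annotated transcript of that gene. None of the 8 windows held the AP-1 letters, which 7.79% of all windows did, and *Spry1*, *Spry2*, and *Spred3* held none of the 5 motifs. These are matches of letters, and the data do not show which factor binds there.

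Per kilobase of annotated exon, *Dusp5* had the highest level in control cerebellum, at 63.2 ± 5.65 CPM per kilobase (SD, n = 3), 2.10 times the level of the next gene. *Dusp1* followed at 30.1 ± 5.49, then *Spred2* at 22.3 ± 3.67 and *Spred1* at 19.1 ± 1.99 CPM per kilobase (SD, n = 3 each). The control ranges of *Dusp1* and *Spred2* overlapped, as did those of *Spred2* and *Spred1*, so that their order is not settled. *Spry2* was at 15.5 ± 0.982 CPM per kilobase and stood apart from its neighbours. Below it came *Dusp6* at 6.66 ± 0.686, *Spry4* at 5.43 ± 0.393, and *Spred3* at 4.40 ± 0.327 CPM per kilobase. *Dusp4* and *Spry1* were lowest, at 2.94 ± 0.617 and 2.66 ± 0.139 CPM per kilobase, with overlapping ranges. Within each family, 1 gene therefore carried a higher level than the others, except that *Spred1* and *Spred2* overlapped. *Dusp1* has 6 annotated transcripts, and with the length of the longest its level was 43.1 CPM per kilobase. That length also placed *Spred3* at 6.75 CPM per kilobase, above *Spry4*.

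**Figure D1:**
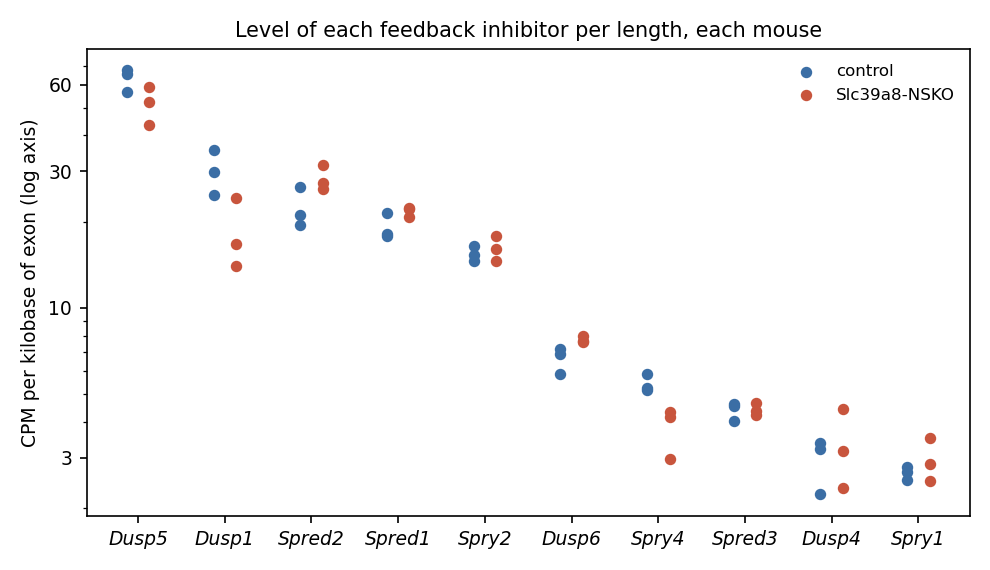
Level of each feedback inhibitor in CPM per kilobase of exon (logarithmic axis), with 1 point per mouse in control (blue) and *Slc39a8*-NSKO (red) cerebellum, ordered by the control mean. *Dusp5* is highest, with a control mean of 63.2, and *Spry1* lowest, with a control mean of 2.66.

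None of the 10 genes passed the threshold of an adjusted p below 0.05 in edgeR's quasi-likelihood test, a threshold that 0.098% of the 16330 genes passed (0.0735% lower and 0.0245% higher). With no filter on low counts 4 passed (*Dusp1*, *Dusp5*, *Spry4*, and *Spred2*), against 0.655% of 27187 genes. At an unadjusted p below 0.05 there were 6 of the 10, against 5.39% of all genes. Of these, *Dusp1*, *Dusp5*, and *Spry4* were lower in *Slc39a8*-NSKO cerebellum, where 3.14% of all genes were lower, and *Dusp6*, *Spred1*, and *Spred2* were higher, where 2.25% of all genes were higher. The genotypes did not overlap in *Dusp1*, *Spry4*, and *Dusp6*, as in 10.3% of all genes (5.26% lower and 5.07% higher). The fitted log2 fold changes ran from −0.72 to 0.34, with 3 below and 7 above 0 and a median of 0.10, and the median over all genes tested was 0.0011. With 3 mice against 3, an exact permutation test of a single gene cannot give a p below 0.1. The 10 genes were chosen with earlier results of these data known, and the list as a whole was not tested.

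**Figure D2:**
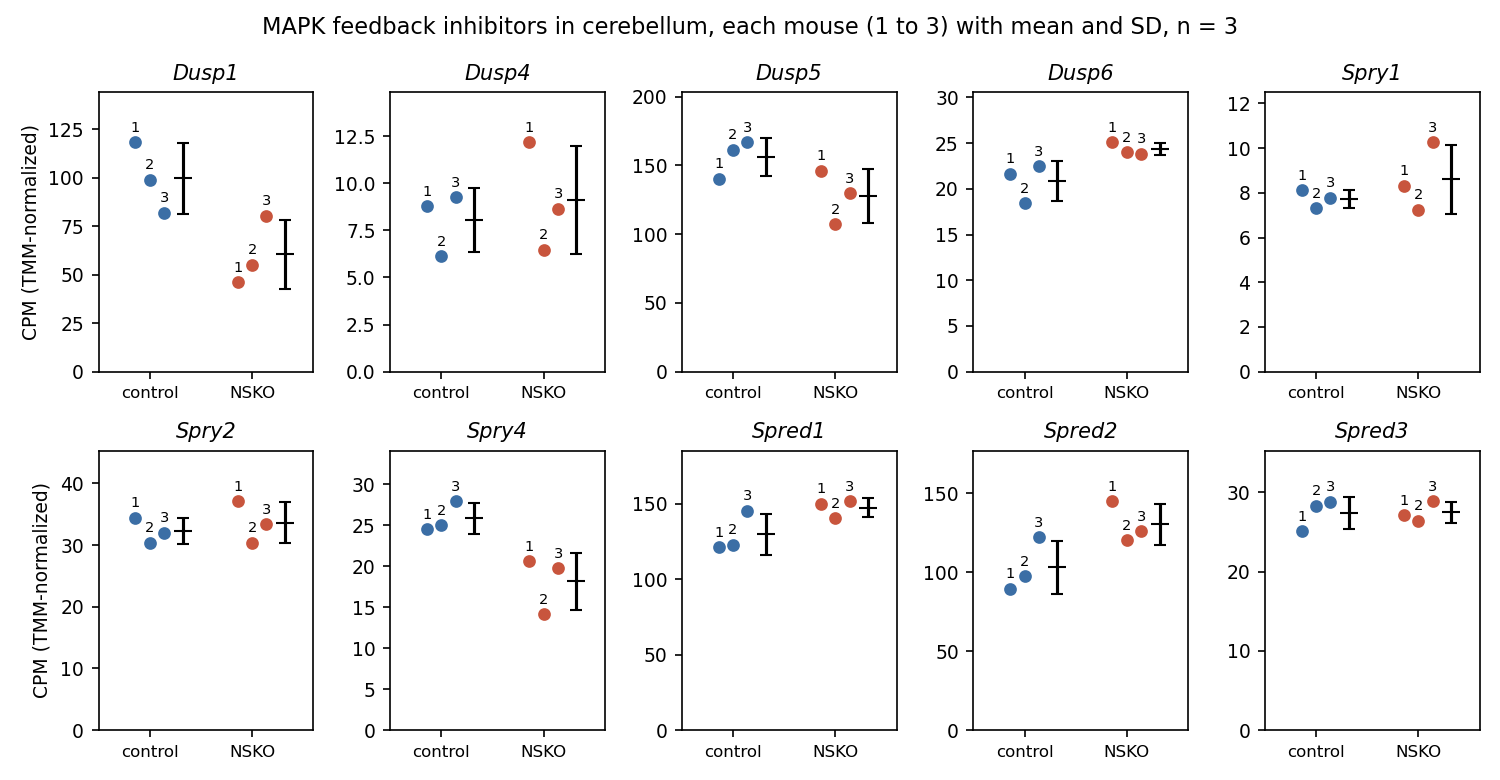
CPM of each feedback inhibitor in control (blue) and *Slc39a8*-NSKO (red, written NSKO) mice 1 to 3, with the mean and SD in black (n = 3). The genotypes do not overlap in *Dusp1* and *Spry4*, which are lower in the *Slc39a8*-NSKO mice, and in *Dusp6*, which is higher, and they overlap in the other 7 genes.

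*Dusp1*, also called MKP-1, encodes a nuclear phosphatase that acts on p38, JNK, and ERK and is among the fastest genes to respond to a stimulus. It had 118, 99.0, and 81.9 CPM in control mice 1 to 3 and 46.2, 55.2, and 80.4 CPM in *Slc39a8*-NSKO mice 1 to 3, from between 923 and 2450 counts. The genotypes did not overlap, but *Slc39a8*-NSKO mouse 3 came close to control mouse 3. The means were 99.7 ± 18.2 CPM in control and 60.6 ± 17.7 CPM in *Slc39a8*-NSKO mice (SD, n = 3 each), or 60.8% of the control mean. The log2 fold change was −0.72 (standard error 0.163, 95% interval −1.07 to −0.37, edgeR adjusted p = 0.210). The spread between mice of a genotype, 18.2% of the mean in control and 29.2% in *Slc39a8*-NSKO mice, exceeded the counting error of at most 3.29%. When *Slc39a8*-NSKO mouse 3 was left out, the log2 fold change was −0.98 and the gene passed (edgeR adjusted p = 0.0108, a threshold that 0.114% of 16718 genes passed). With any other mouse left out it did not pass, and its log2 fold change lay between −0.84 and −0.56. DESeq2, which called 0.171% of 21681 genes, gave −0.72 with a larger standard error of 0.284, and did not call the gene. *Dusp1* lies on the minus strand of chromosome 17, from 26505590 to 26562128 in the annotation used here, whose version of the gene is not that of the table. Its exons overlap those of *Ergic1* on the opposite strand, and the sources used here do not say whether reads were counted by strand. The labels name a directional library kit and the methods of the study name the kit without that word, which also bears on the other genes below with a partner on the opposite strand.

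Over the 6 mice, the genes whose log2 CPM followed *Dusp1* most closely were *6820408C15Rik* (Pearson's r = 0.992), *Npas4* (r = 0.992), and *D930036K23Rik* (r = 0.983), the highest of all genes tested. These are descriptions over 6 mice that share libraries and genotype. *Npas4*, an activity-induced transcription factor of neurons, had 12.9, 11.5, and 8.29 CPM in control and 2.95, 3.65, and 7.22 CPM in *Slc39a8*-NSKO mice. As for *Dusp1*, control mouse 3 was the lowest of its genotype and *Slc39a8*-NSKO mouse 3 the highest of its own, a likeness that the choice by correlation brings with it. *Npas4* did not pass the threshold either (edgeR adjusted p = 0.142), and *6820408C15Rik* and *D930036K23Rik* had at most 44 and 103 counts in a mouse.

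*Dusp5*, a nuclear phosphatase specific for ERK, had 140, 161, and 167 CPM in control and 146, 107, and 130 CPM in *Slc39a8*-NSKO mice 1 to 3. The genotypes overlapped, because *Slc39a8*-NSKO mouse 1 lay above control mouse 1. The *Slc39a8*-NSKO mean was 81.8% of control, and the log2 fold change was −0.29 (standard error 0.095, 95% interval −0.49 to −0.08, edgeR adjusted p = 0.750). The gene lies on the plus strand of chromosome 19 from 53529109 to 53542431, where an opposite-strand gene, *AC137853.2*, overlaps an exon.

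*Dusp6*, also called MKP-3, encodes the cytoplasmic phosphatase specific for ERK and is often read as a gauge of ERK activity. It had 21.7, 18.4, and 22.5 CPM in control and 25.1, 24.0, and 23.9 CPM in *Slc39a8*-NSKO mice 1 to 3. All *Slc39a8*-NSKO mice lay above all control mice, and their SD was 2.73% of their mean, against 10.3% in control. Counting error alone was up to 6.14%, at the 265 counts of control mouse 2, and the difference in spread was not tested. The mean was 116.6% of control and the log2 fold change 0.22 (standard error 0.088, 95% interval 0.03 to 0.41, edgeR adjusted p = 0.872). *Dusp6* lies on the plus strand of chromosome 10 from 99263231 to 99267489.

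*Dusp4*, or MKP-2, an inducible nuclear phosphatase, was lower in count than its relatives, with 88 to 243 counts per mouse. It had 8.78, 6.12, and 9.25 CPM in control and 12.2, 6.47, and 8.66 CPM in *Slc39a8*-NSKO mice, which overlapped. Its log2 fold change of 0.17 had the widest interval of the 10 genes, −0.28 to 0.62, and turned to −0.10 without *Slc39a8*-NSKO mouse 1. *Dusp4* lies on chromosome 8, from 34807297 to 34819894. Summed over the 4 phosphatase genes, control mice had 289, 285, and 280 CPM and *Slc39a8*-NSKO mice 229, 193, and 243 CPM. These sums did not overlap, and *Dusp1* and *Dusp5* made up most of each.

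Sprouty proteins are membrane-linked adaptors that block receptor signals to RAS and RAF. *Spry4* had 24.5, 25.0, and 28.0 CPM in control mice 1 to 3 and 20.6, 14.2, and 19.8 CPM in *Slc39a8*-NSKO mice 1 to 3. All *Slc39a8*-NSKO mice were below all control mice, and mouse 2 was the lowest. The means were 25.8 ± 1.87 and 18.2 ± 3.49 CPM (SD, n = 3 each), 70.4% of control. The log2 fold change was −0.50 (standard error 0.121, 95% interval −0.77 to −0.24, edgeR adjusted p = 0.298), and with 1 mouse left out at a time it ranged from −0.60 to −0.35 and never passed. *Spry4* lies on the minus strand of chromosome 18, from 38586247 to 38601415.

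The other Sprouty genes overlapped between the genotypes. *Spry2* had 34.5, 30.4, and 32 CPM in control and 37.1, 30.4, and 33.4 CPM in *Slc39a8*-NSKO mice. Its log2 fold change of 0.06 had an interval of −0.12 to 0.24, so that differences beyond 1.18-fold higher or 0.917-fold lie outside it. *Spry1*, the least abundant member, had 8.11, 7.30, and 7.77 CPM in control and 8.31, 7.24, and 10.3 CPM in *Slc39a8*-NSKO mice. Its log2 fold change was 0.15 (95% interval −0.16 to 0.46). Its counts were not whole in 4 of the 6 mice, so that some reads had been divided with other genes, and an exon of *Gm42922* overlaps it on the opposite strand. *Spry2* lies on chromosome 14 from 105891947 to 105896819 and *Spry1* on chromosome 3 from 37639947 to 37644598. The 95% intervals of *Spry4* and *Spry2* did not overlap, but the difference between these genes was not tested and the interval of *Spry2* includes 0. Summed, the Sprouty genes had 67.1, 62.7, and 67.7 CPM in control and 66.0, 51.8, and 63.4 CPM in *Slc39a8*-NSKO mice, which overlapped.

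Spred proteins bind neurofibromin, the RAS inactivator encoded by *Nf1*, and bring it to the membrane. *Spred2* had 89.7, 97.4, and 122 CPM in control and 145, 121, and 126 CPM in *Slc39a8*-NSKO mice 1 to 3. The genotypes overlapped only because control mouse 3 lay above *Slc39a8*-NSKO mouse 2. The *Slc39a8*-NSKO mean was 126.7% of control and the log2 fold change 0.34 (standard error 0.099, 95% interval 0.13 to 0.56, edgeR adjusted p = 0.563). *Spred1*, whose human counterpart is mutated in Legius syndrome, had 121, 123, and 145 CPM in control and 150, 140, and 152 CPM in *Slc39a8*-NSKO mice. Here too control mouse 3 overlapped the *Slc39a8*-NSKO values, and the log2 fold change was 0.18 (standard error 0.070, 95% interval 0.03 to 0.34, edgeR adjusted p = 0.860). *Spred3*, which lacks a working receptor-binding domain, had 25.0, 28.3, and 28.8 CPM in control and 27.1, 26.4, and 28.9 CPM in *Slc39a8*-NSKO mice, and its log2 fold change was 0.01 (95% interval −0.16 to 0.18). The 3 genes lie on chromosome 11 from 19924375 to 20024026, chromosome 2 from 117121374 to 117182279, and chromosome 7 from 29158829 to 29170411, in that order, and an exon of *Ggn* overlaps *Spred3* on the opposite strand. Summed, they had 236, 249, and 296 CPM in control and 322, 287, and 307 CPM in *Slc39a8*-NSKO mice, which overlapped.

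**Figure D3:**
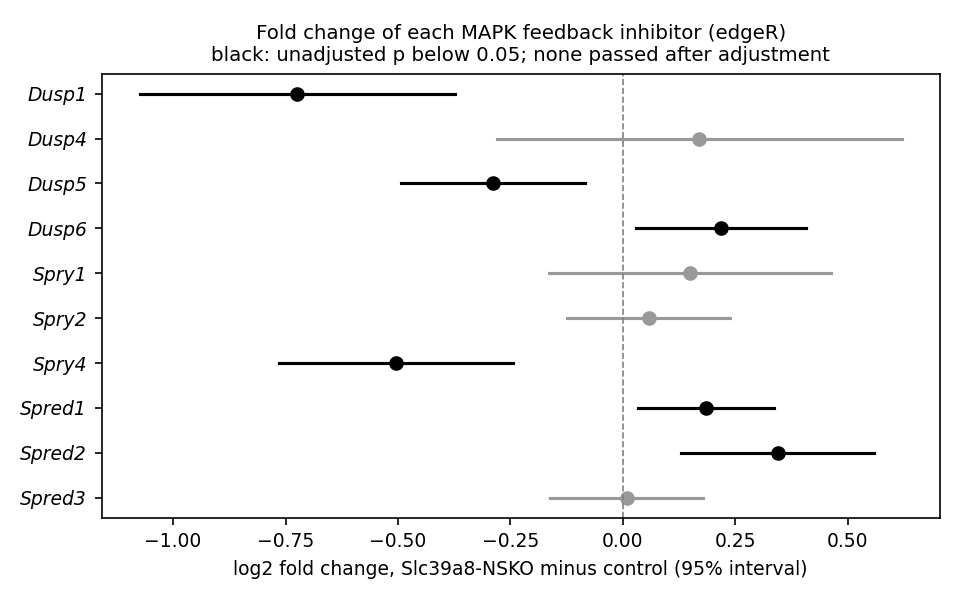
Log2 fold change of each feedback inhibitor, *Slc39a8*-NSKO minus control, with its 95% interval from edgeR's fit over 6 mice. The intervals of *Dusp1*, *Dusp5*, and *Spry4* lie below 0 and those of *Dusp6*, *Spred1*, and *Spred2* above it (black, unadjusted p below 0.05), and none of the 10 genes passed after adjustment.

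In whole cerebellum, fewer cells of a type and less RNA per cell cannot be told apart. Markers of Bergmann glia and astrocytes had a summed level of 2717 to 3101 CPM in control and 3184 to 3280 CPM in *Slc39a8*-NSKO mice, without overlap, as *Dusp6* had. None of these 8 markers was at 0, all 8 had a log2 fold change above 0, and none passed the threshold (lowest edgeR adjusted p = 0.301, for *Gfap*). Microglial markers summed to 119 to 133 CPM in control and 139 to 141 CPM in *Slc39a8*-NSKO mice, with none of 8 past the threshold. Granule cell precursor markers summed to 28.4 to 29.3 CPM in control and 26.3 to 28.3 CPM in *Slc39a8*-NSKO mice. None of 4 tested passed the threshold, and *Atoh1* was at 0 counts in every mouse. *Gli1* made up most of this sum, at 22.4 CPM in control and 21.6 CPM in *Slc39a8*-NSKO mice, while *Mki67* and *Top2a* had at most 15 and 23 counts in a mouse. The lowest control sum, 28.37 CPM, was close to the highest *Slc39a8*-NSKO sum, 28.31 CPM. Heart muscle markers summed to 2.03 to 2.92 CPM in control and 11.1 to 13.1 CPM in *Slc39a8*-NSKO mice, and 3 of 5 passed. The sums of the other 9 lists overlapped between the genotypes. Among these, choroid plexus markers summed to 771 to 1115 CPM in control and 907 to 1558 CPM in *Slc39a8*-NSKO mice, all 7 had a log2 fold change above 0 (median 0.35), and none passed the threshold (lowest edgeR adjusted p = 0.228, for *Folr1*). All 8 markers of mature oligodendrocytes had a log2 fold change below 0 (median −0.07), and none passed. The part of these cell types in the values of the feedback inhibitors was not tested.

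**Figure D4:**
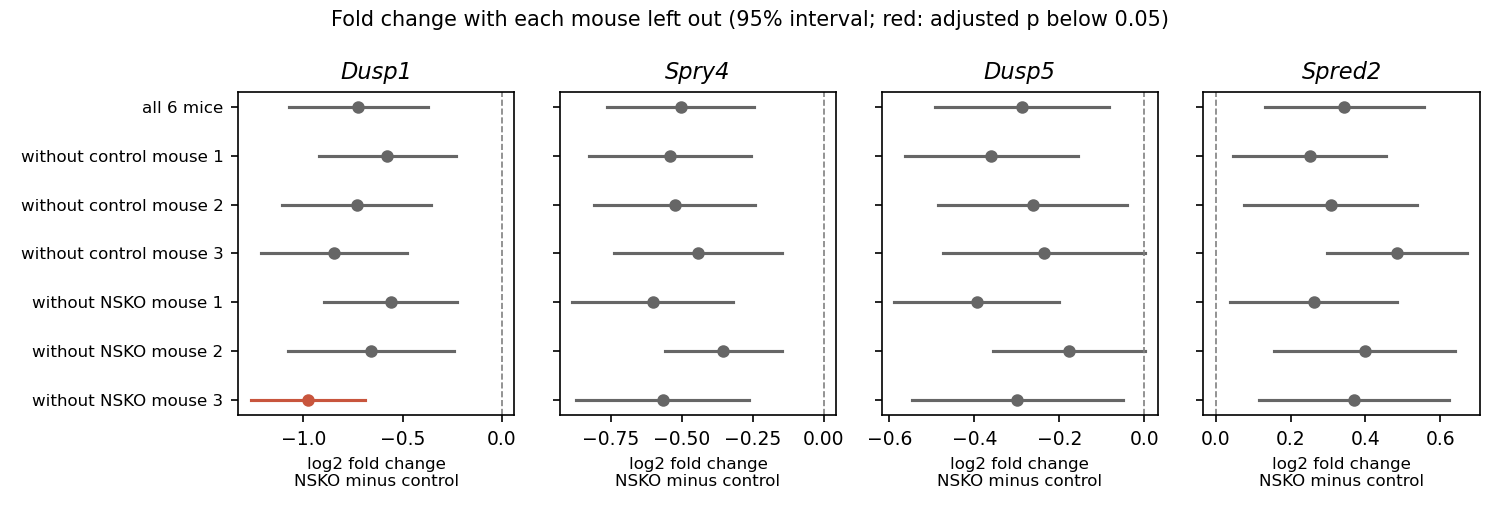
Log2 fold change (*Slc39a8*-NSKO, written NSKO, minus control) with its 95% interval for *Dusp1*, *Spry4*, *Dusp5*, and *Spred2* in all 6 mice and with each mouse left out, on a separate scale for each gene. *Dusp1* without *Slc39a8*-NSKO mouse 3 (red, −0.98) is the only fit with an adjusted p below 0.05.

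The rest of the pathway was read from 9 lists by role, of which 131 of 132 genes were in the table by symbol and 127 passed the filter. None of the 127 passed the threshold, and their median log2 fold change was 0.0052. At an unadjusted p below 0.05, 6 were lower and 5 higher, against 3.14% and 2.25% of all genes tested. The genotypes did not overlap in 11 genes that were lower and 6 that were higher, against 5.26% and 5.07% of all genes tested. Among the other MAPK phosphatases, 5 of 6 were tested and none passed. *Dusp8*, a phosphatase of JNK and p38 abundant in brain, had 154.5 ± 4.40 CPM in control and 141.8 ± 6.22 CPM in *Slc39a8*-NSKO mice (SD, n = 3 each), and *Dusp16*, another JNK phosphatase, had 35.6 ± 1.64 and 31.4 ± 1.90 CPM. In both genes the genotypes did not overlap, with log2 fold changes of −0.12 and −0.18 (edgeR adjusted p = 0.908 and 0.875). *Dusp9* had at most 3 counts in a mouse and was not tested.

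Other feedback regulators had log2 fold changes between −0.30 and 0.12 over 12 genes, none of them with an unadjusted p below 0.05. *Nf1*, the partner of the Spred proteins, had a log2 fold change of −0.10 (95% interval −0.25 to 0.05). *Errfi1*, which inhibits the EGF receptor, had −0.10 and *Il17rd*, an inhibitor of FGF signaling, −0.30, with a standard error of 0.193. *Rasa1*, a RAS GTPase-activating protein, had the lowest p of this list, with a log2 fold change of 0.12 (edgeR adjusted p = 0.968).

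Of 24 ligand genes tested, none passed. *Fgf14* had the lowest p, with a log2 fold change of 0.33 (edgeR adjusted p = 0.607), and is an intracellular relative of FGFs that binds sodium channels. Of 14 receptor genes none passed, and *Fgfr1* was 176.3 ± 7.66 CPM in control and 192.9 ± 4.59 CPM in *Slc39a8*-NSKO mice (SD, n = 3 each), higher in every *Slc39a8*-NSKO mouse (log2 fold change 0.13, edgeR adjusted p = 0.875). *Ntrk2*, the receptor of BDNF, had a log2 fold change of 0.05 (95% interval −0.08 to 0.19). Of 16 adaptor and exchange factor genes none passed, and the lowest p was that of *Gab1*, a docking protein (log2 fold change −0.17, edgeR adjusted p = 0.908).

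All 20 core kinases and scaffolds had log2 fold changes between −0.11 and 0.16, and none had an unadjusted p below 0.05. *Braf* had −0.07 (95% interval −0.19 to 0.05) and *Map2k1*, which encodes MEK1, 0.05 (−0.06 to 0.16). *Mapk3*, which encodes ERK1, had −0.11 (−0.23 to 0.0015), with 106.9 ± 1.72 CPM in control and 98.9 ± 3.12 CPM in *Slc39a8*-NSKO mice (SD, n = 3 each), which did not overlap. Of the 13 genes of the p38 and JNK branches none passed, and *Map2k3*, which activates p38, had the lowest p (log2 fold change −0.25, edgeR adjusted p = 0.916). Of 8 effector kinases none passed, and *Mknk2*, a kinase of the translation factor eIF4E, had the lowest edgeR adjusted p of all 127 genes, 0.407. It was 68.9 ± 3.11 CPM in control and 58.6 ± 1.38 CPM in *Slc39a8*-NSKO mice (SD, n = 3 per genotype), and its log2 fold change was −0.23.

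Transcriptional readouts of ERK divided in direction, with 8 of 15 below and 7 above 0 and none past the threshold. *Egr1*, an immediate-early transcription factor gene with serum response elements, had 47.0, 33.1, and 35.9 CPM in control and 31.8, 28.9, and 31.98 CPM in *Slc39a8*-NSKO mice. The genotypes did not overlap, and the log2 fold change was −0.33 (edgeR adjusted p = 0.750). At an unadjusted p below 0.05, 1 readout was lower and 2 were higher. The higher ones, named after their values were seen, were *Myc*, a growth-promoting transcription factor gene with only 14 to 40 counts per mouse (log2 fold change 0.67, edgeR adjusted p = 0.908), and *Elk1*, an ETS factor that ERK phosphorylates (log2 fold change 0.18, edgeR adjusted p = 0.867). Neither overlapped between the genotypes. *Etv5*, an ETS factor that ERK induces slowly, had 73.6 ± 14.05 CPM in control against 80.1 ± 7.18 CPM in *Slc39a8*-NSKO mice (SD, n = 3 per genotype), and its log2 fold change was 0.12 (95% interval −0.11 to 0.35).

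**Figure D5:**
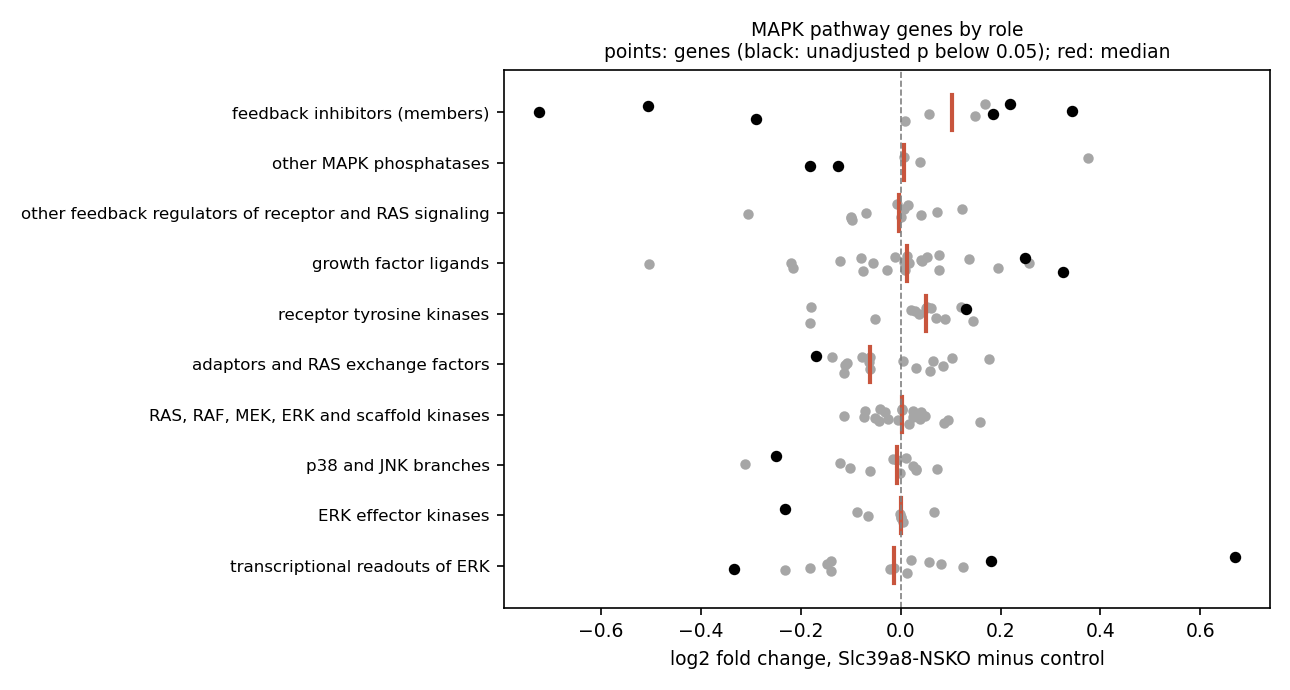
Log2 fold change (*Slc39a8*-NSKO minus control) of the feedback inhibitors and of 9 lists of other MAPK pathway genes, with 1 point per gene (black where the unadjusted p was below 0.05) and the median of each list in red. The 10 feedback inhibitors lie between −0.72 and 0.34, the ligands between −0.50 and 0.33, the readouts of ERK between −0.33 and 0.67, and the 20 core kinases between −0.11 and 0.16.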

How the data were processed

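The authors prepared total RNA from cerebellum with 1 library per mouse, made cDNA with oligo-dT, and aligned 150-base paired-end reads with STAR. The methods of the study give 3 mice per genotype as biological replicates, whereas a figure caption of the study speaks of technical triplicates. Each column was read here as 1 mouse. The submitters' processing notes also name RSEM and the build mm10. The deposited values are expected counts per gene, which the authors did not normalize for library size or gene length. Tool versions and the strand setting are not given in the sources used here. All 6 columns were used, and the 92 spike-in sequences, which held at most 5 counts in a mouse, were left out. Names, positions, and exon lengths are from GENCODE M21 (GRCm38).

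Expected counts were rounded and fitted with edgeR 4.0.16 in R 4.3.3 (TMM, filterByExpr, glmQLFit and glmQLFTest, no covariate), with Benjamini-Hochberg adjustment over all 16330 genes kept. Standard errors and 95% intervals derive from the quasi-likelihood F. The p values rest on the spread between 3 mice per genotype, moderated for each gene toward the trend over all genes. The median prior degrees of freedom were 9.45. Standard errors and intervals thus draw on other genes too, and can be narrower than a gene's own spread between mice would give. The genes, the lists, and the tests were chosen with earlier results of these data known. Genes named besides the 10 are the gene of lowest p in each pathway list without a call, 12 pathway genes listed by name (1 of them is not reported here), the 3 genes most like *Dusp1*, and markers. Alternatives were DESeq2 1.42.0, limma-voom (limma 3.58.1), other normalizations, filters, unrounded counts, a replicate block, and each mouse left out. The fits were tested on simulated data.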

Additional observations from a re-analysis of the deposited data

How the results depend on the processing

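The count of 0 feedback inhibitors past the threshold was the same in 13 of 15 alternatives, including DESeq2, limma-voom, and a threshold of 0.1. With no filter on low counts, 4 passed, namely *Dusp1* (log2 fold change −0.72), *Dusp5* (−0.28), *Spry4* (−0.50), and *Spred2* (0.35), as did 178 of 27187 genes, or 0.655%, and 3 pathway genes (*Fgf14*, *Igf2*, and *Egr1*). In that fit the prior degrees of freedom were infinite, against 9.45 with the filter, so that every gene took its spread from the common trend. With each mouse left out, between 0 and 1 feedback inhibitors passed, the 1 being *Dusp1* (log2 fold changes −0.98 to −0.56) without *Slc39a8*-NSKO mouse 3. *Dusp4* (−0.10 to 0.37), *Spry2* (−0.019 to 0.13), and *Spred3* (−0.055 to 0.048) reversed with a mouse left out, each without passing the threshold, and the other 7 genes kept their direction in all 14 alternatives. With the longest transcript as length, control levels were 43.1 (*Dusp1*), 7.46 (*Dusp6*), 21.6 (*Spred1*), and 6.75 (*Spred3*) CPM per kilobase. Over all genes, 16 passed in edgeR's test, 37 with DESeq2, 41 with the replicate block, and 9 to 38 with a mouse left out. Mice of different genotype were also correlated over the genes kept, after the mean of its genotype was subtracted from each gene's log2 CPM. Such differences cancel out within a genotype, so that correlations of both signs must occur. Correlations of same-numbered mice were 0.142, 0.116, and 0.0104, and those of differently numbered mice ran from −0.177 to 0.0665. The values of mice 1 and of mice 2 were thus the highest of all. The main fit did not take the numbers as pairs, and whether they mark a shared batch was not tested. Control mouse 3 correlated best with *Slc39a8*-NSKO mouse 1. The block called 0 of the 10 genes and gave *Spry4* the lowest adjusted p among them, 0.116 in edgeR's test. Depth limits *Dusp4* and *Spry1* most, with a counting error of up to 10.7% and 9.76%.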

Other observations

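The mouse with the highest or lowest CPM of its genotype was counted over the 10 feedback inhibitors, as a description without a test or a count over all genes. *Slc39a8*-NSKO mouse 2 had the lowest CPM of its genotype in 8 of the 10 genes and the highest in 0, whereas *Slc39a8*-NSKO mouse 1 had the highest in 6 and *Slc39a8*-NSKO mouse 3 in 4. Control mouse 3 had the highest CPM of its genotype in 7 of the 10 genes and the lowest in 1, and that 1 was *Dusp1*. Control mouse 1 was lowest in 5 genes and highest in 3, and control mouse 2 was lowest in 4 and highest in 0. *Dusp1* was also the 1 gene that was lowest in *Slc39a8*-NSKO mouse 1. The SD of log2 CPM within genotypes was largest in *Dusp4* (0.391) and *Dusp1* (0.343) and smallest in *Spred3* (0.091), and its median over all genes tested was 0.119.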
